A study of Mus musculus with 8 samples.

Results

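The genes that carry and switch the SREBP and ChREBP programmes of lipid synthesis were examined in the livers of ovariectomized (OVX) mice. They were 10 genes, listed by name for their place in this machinery: Srebf1, Srebf2, Scap, Insig1, Insig2, Mlxipl, Mlx, Mbtps1, Usf1 and Usf2. All 10 were found among the 19938 genes measured, each by 1 probe set whose annotation names that gene alone, and a gene with several such probe sets is represented by the brightest of them on average. Liver RNA of 4 OVX mice fed with HFD+WBM, a high fat diet with powder of white button mushroom (Agaricus bisporus), was set against that of 4 OVX mice fed with the high fat diet alone (HFD). The study's diet composition also gives less corn starch in HFD+WBM than in HFD. Added powder and reduced starch cannot be told apart here. All 8 were female mice, given as strain C57B1/6J, whose ovaries were removed at 7 weeks of age, as a model of the state after menopause. The diets began 1 week after surgery and lasted 3 months, the groups were given equal weights of food, and all mice were fasted for some hours before the livers were taken. Each mouse had an array of its own, an Affymetrix Mouse Gene 1.0 ST array, and no sham-operated mouse is among them. All values are the authors' normalized log2 expression values, fold changes are HFD+WBM over HFD, and tests are from limma fitted to all genes unless named otherwise.

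SREBPs are transcription factors that are made as membrane proteins of the endoplasmic reticulum. Scap senses sterols and escorts them to the Golgi, where the proteases encoded by Mbtps1 and Mbtps2 cut them free, and the Insig proteins hold Scap back when sterols are plentiful. SREBP-1c, from Srebf1, drives fatty acid synthesis in liver, and SREBP-2, from Srebf2, drives cholesterol synthesis and uptake. ChREBP, from Mlxipl, binds DNA together with Mlx and answers to glucose metabolites, and USF1 and USF2 are E-box factors that bind promoters of lipogenic genes. SREBP activity is set to a large degree by protein cleavage, which arrays do not measure.

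In the limma fit with all mice, few of the 10 genes passed p under 0.05 before adjustment and none after it. Whether the number that passed exceeds the share over all genes was not tested. At p under 0.05 before adjustment Insig2 and Mlx were lower in mice fed with HFD+WBM, none was higher and 8 did not pass, which is 2 of 10 genes where 11.7% of all 19938 genes passed in either direction, 6.9% being lower and 4.85% higher. None of the 10 passed the study's thresholds of p under 0.05 with a change of at least 2-fold (0.762% of all genes did), and none had a Benjamini-Hochberg adjusted p under 0.05 (0% of all genes by limma and 0 genes by the methods' t-test, while 2341 genes passed p under 0.05 before adjustment by limma). The adjusted p of the 10 genes was 0.377 to 0.98. Usf1 was the only one of the 10 whose 4 HFD+WBM values all lay on one side of the 4 HFD values, against 8.23% of all genes in either direction, with 3.21% higher and 5.02% lower. The median log2 fold change of the 10 genes was -0.045, against 0.007 over all genes, with 6 estimates below 0 and 4 above. For 8 of the 10 the 95% interval of the difference excluded a 2-fold change in either direction, and Srebf1 and Insig2 were the exceptions.

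**Figure D1:**
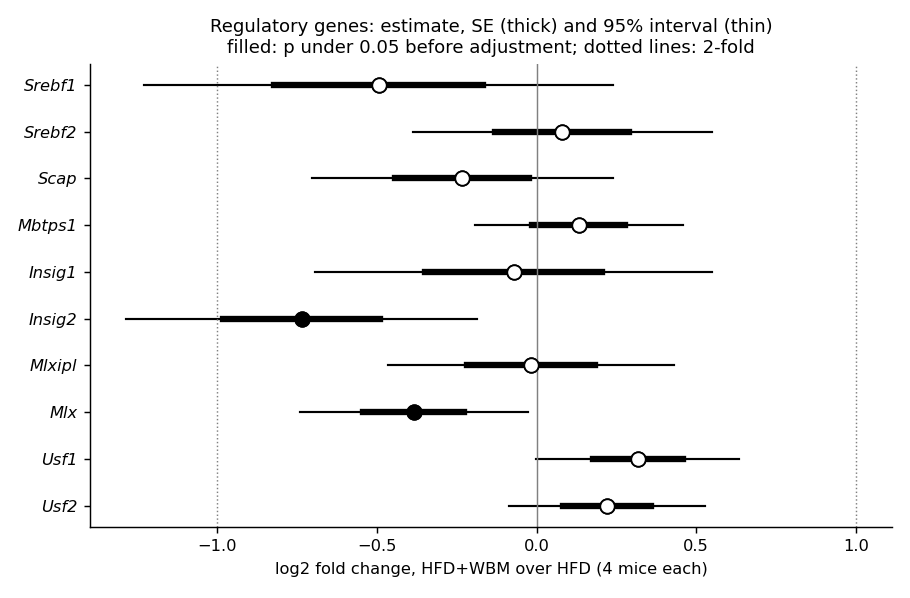
Log2 fold change of each of the 10 regulatory genes, HFD+WBM over HFD (4 mice each), with its standard error (thick line) and 95% interval (thin line) from limma. Insig2 (-0.74) and Mlx (-0.38) are filled for p under 0.05 before adjustment, and the intervals of Srebf1 and Insig2 cross the dotted line of a 2-fold fall.

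Several livers stood apart from their group. Pairs of arrays correlated at 0.920 to 0.973, and HFD replicate 3 was the most distant array over all genes (SD of its differences from the other arrays' mean 0.678, where the other 7 arrays had 0.384 to 0.499). For the lipogenic genes the mice that departed from their own group were the 2 with replicate number 1, as is described with Srebf1 and Insig1. The labelled tissue was borne out by 9 measured hepatocyte markers, which had values of at least 11.5, and of which 0 passed p under 0.05 before adjustment by limma (likewise 0 by the methods' t-test). Of 12 macrophage markers, which in liver chiefly mark Kupffer cells, 10 were lower and none higher with HFD+WBM at that threshold by limma (median log2 fold change -0.667). Over all genes 6.9% were lower and 4.85% higher. The summed linear value of the macrophage markers was 6024 to 8620 in the HFD+WBM mice and 8821 to 12673 in the HFD mice, with none of the 12 at 0. In whole liver, fewer cells of a type and less RNA per cell cannot be told apart, and the part of the macrophage shift in the results below was not tested.

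Upstream sequences of the genes whose values are followed most closely are shown first, with the windows RefSeq gives on GRCm38.p6 (250 bases before to 50 after a transcript start). Of the 10 genes, 9 matched this table, with 16 windows. The Insig2 windows are shown because Insig2 changed most and has 3 starts, which 1 probe set cannot tell apart. They lie on the minus strand at chr1:121332540-121332839, chr1:121327975-121328274 and chr1:121327629-121327928, named starts 1, 2 and 3 here, and start 1 is 4565 bases before start 2 and start 2 is 346 bases before start 3. Mlx (chr11:101087040-101087339, plus strand) is shown as the other gene that passed. Insig1 (chr5:28071162-28071461, plus strand) and Srebf2 (chr15:82147019-82147318, plus strand) are shown because their values are set against those of the SREBP-2 targets. Capitals mark CCAAT (the NF-Y box), CACGTG (the E-box) and TCACNCCA (the core of the sterol regulatory element), each on either strand, so that ATTGG is CCAAT read on the other strand.
Insig2 start 1: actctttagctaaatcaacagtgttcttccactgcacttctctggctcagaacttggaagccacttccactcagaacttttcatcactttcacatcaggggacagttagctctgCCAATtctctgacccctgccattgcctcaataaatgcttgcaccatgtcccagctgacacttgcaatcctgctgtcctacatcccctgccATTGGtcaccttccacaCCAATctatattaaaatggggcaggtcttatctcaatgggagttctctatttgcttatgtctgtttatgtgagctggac
Insig2 start 2: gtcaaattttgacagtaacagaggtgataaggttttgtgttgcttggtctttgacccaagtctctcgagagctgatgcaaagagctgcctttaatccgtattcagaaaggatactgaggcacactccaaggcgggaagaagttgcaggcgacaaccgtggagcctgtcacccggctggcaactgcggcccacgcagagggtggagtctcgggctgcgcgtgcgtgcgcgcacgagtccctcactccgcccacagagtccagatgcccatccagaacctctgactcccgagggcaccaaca
Insig2 start 3: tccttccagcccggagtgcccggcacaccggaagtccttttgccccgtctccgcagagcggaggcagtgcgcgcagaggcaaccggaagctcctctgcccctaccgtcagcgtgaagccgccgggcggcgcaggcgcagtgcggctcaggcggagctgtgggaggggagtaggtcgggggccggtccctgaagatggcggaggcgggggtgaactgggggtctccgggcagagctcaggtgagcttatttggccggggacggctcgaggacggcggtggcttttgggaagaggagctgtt
Mlx: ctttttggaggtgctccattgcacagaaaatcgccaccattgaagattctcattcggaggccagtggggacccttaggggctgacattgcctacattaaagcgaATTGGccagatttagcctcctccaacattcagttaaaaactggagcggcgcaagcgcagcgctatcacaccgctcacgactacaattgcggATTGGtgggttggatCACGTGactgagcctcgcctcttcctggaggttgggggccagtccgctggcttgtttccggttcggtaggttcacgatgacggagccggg
Insig1: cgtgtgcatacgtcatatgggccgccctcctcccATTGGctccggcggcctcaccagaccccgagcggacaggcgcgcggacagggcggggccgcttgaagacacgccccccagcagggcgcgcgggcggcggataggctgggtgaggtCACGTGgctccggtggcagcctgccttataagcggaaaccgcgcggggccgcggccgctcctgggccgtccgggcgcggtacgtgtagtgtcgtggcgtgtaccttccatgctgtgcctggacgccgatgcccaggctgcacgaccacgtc
Srebf2: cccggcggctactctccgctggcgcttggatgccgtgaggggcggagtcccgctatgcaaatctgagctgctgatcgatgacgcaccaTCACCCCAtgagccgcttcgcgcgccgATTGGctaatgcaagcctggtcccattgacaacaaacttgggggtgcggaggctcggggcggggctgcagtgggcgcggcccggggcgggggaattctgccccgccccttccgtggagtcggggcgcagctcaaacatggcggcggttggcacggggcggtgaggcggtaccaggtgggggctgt

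The window of start 1 of Insig2 held 3 CCAAT matches and the other 2 windows held none. CCAAT occurred in 7 of the 16 windows of the 9 genes, and in 37.4% of all 32851 windows of this length. CACGTG occurred in 5 of the 16 windows, those of Scap (both), Insig1, Mlx and 1 of Mlxipl, and in 7.15% of all windows. The 2 Scap starts are 68 bases apart, so that their windows overlap and hold the same CACGTG, which is counted in both. Its first base lay at -101 from the start of Insig1 and at -40 from that of Mlx. The sterol element core TCACNCCA was found in 2 windows, that of Srebf2 (first base at -162) and 1 of Mlxipl (-136), and in 4.36% of all windows. These matches describe letters in a window and were not tested as binding sites.

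Insig2 showed the largest change of the 10 genes. It encodes one of the pair of sterol-regulated proteins that retain Scap in the endoplasmic reticulum. Its log2 values were 10.66, 10.33, 9.98 and 10.58 in the 4 HFD+WBM mice, against 10.64, 10.87, 11.48 and 11.51 in the 4 HFD mice. All HFD+WBM mice but replicate 1 lay below every HFD mouse, and that mouse was only just above HFD replicate 1. The means were 10.39 ± 0.31 with HFD+WBM and 11.12 ± 0.44 with HFD (SD, n = 4 each), so that Insig2 was 1.67-fold lower (log2 fold change -0.74, standard error 0.25, 95% interval -1.28 to -0.19). Limma gave p = 0.014 before adjustment and an adjusted p of 0.377, and the exact permutation test, two-sided, gave p = 0.0571, where 4 mice against 4 cannot give less than 0.029. Over all genes, 3.67% had a smaller p. Insig2 passed p under 0.05 before adjustment in each of the 18 alternative settings tried. The 18 include the 8 fits that left out 1 mouse each (log2 fold change -0.90 to -0.60). With a signal-dependent prior variance the adjusted p of Insig2 was 0.0342 (0.0342 to 0.574 over the alternatives).

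Insig1, the other Insig gene and itself a classical target of SREBPs, gave no such difference. It was 13.04, 12.28, 12.35 and 12.34 in the HFD+WBM mice, against 11.81, 12.93, 12.83 and 12.73 in the HFD mice. In each diet 3 mice lay close together, and replicate 1 stood on the far side of the other group. Apart from those 2 mice, the 3 HFD+WBM values lay below the 3 HFD values. With all mice the log2 fold change was -0.07 (standard error 0.28, 95% interval -0.69 to 0.55, adjusted p = 0.934). Leaving out HFD replicate 1 gave -0.33 and leaving out HFD replicate 2 gave 0.04, neither past p under 0.05.

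Srebf1, which encodes SREBP-1a and SREBP-1c from separate starts, varied the most within diets of the 10 genes. Its within-diet SD was 0.54, more than that of 98.2% of the 50% brightest genes, for which the median was 0.221. The values were 12.09, 10.62, 10.82 and 10.98 in the HFD+WBM mice, against 11.97, 11.93, 11.37 and 11.21 in the HFD mice. The highest Srebf1 value of all 8 mice was that of HFD+WBM replicate 1, and the other 3 HFD+WBM mice lay below all 4 HFD mice. The mean was 11.13 ± 0.66 with HFD+WBM and 11.62 ± 0.39 with HFD (SD, n = 4 each). The log2 fold change was -0.50 (standard error 0.33, 95% interval -1.23 to 0.24, limma p = 0.162, adjusted p = 0.553, exact permutation p = 0.229). Without HFD+WBM replicate 1 it was -0.82 and passed p under 0.05 before adjustment, and without any other single mouse it did not pass. The RefSeq windows of its 3 starts are 1954 and 10156 bases apart, and the transcript-level probe set gives 1 value for all of them, so that SREBP-1a and SREBP-1c mRNA cannot be told apart.

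Neither Srebf2 nor its escort passed p under 0.05 in any fit tried. Srebf2 was 9.57, 8.97, 9.48 and 9.81 in the HFD+WBM mice, against 9.04, 9.43, 9.48 and 9.57 in the HFD mice. The groups covered nearly the same range, and the lowest mouse was HFD+WBM replicate 2 in one and HFD replicate 1 in the other. Its log2 fold change was 0.08 (standard error 0.21, 95% interval -0.39 to 0.55), and the sign turned on leaving out HFD+WBM replicate 4 (-0.04) or HFD replicate 1 (-0.04). Scap, the sterol sensor, was 10.52, 10.08, 10.52 and 10.56 in the HFD+WBM mice, against 10.16, 10.97, 10.60 and 10.89 in the HFD mice. The same 2 mice were the lowest of their groups as for Srebf2, and the other HFD+WBM mice lay just below the other HFD mice. Its log2 fold change was -0.23 (standard error 0.21, 95% interval -0.70 to 0.24, adjusted p = 0.667). Mbtps1, the site-1 protease, was 9.82 to 10.21 with HFD+WBM and 9.75 to 9.98 with HFD, with a log2 fold change of 0.13 (standard error 0.15, 95% interval -0.19 to 0.46).

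Srebf2 also carries a microRNA gene, Mir33, within its span. miR-33 is known to act on cholesterol export and fatty acid oxidation genes, and its 5′ arm is printed with the seed (bases 2 to 8) in capitals as RefSeq gives it (GRCm38.p6, chr15:82198127-82198147, plus strand).
mmu-miR-33-5p: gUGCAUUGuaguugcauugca

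The Mir33 probe set does not measure the mature arm. It gave 3.62, 5.30, 3.55 and 3.52 in the HFD+WBM mice, against 4.05, 4.31, 4.37 and 3.41 in the HFD mice. These values were dim and overlapped, with a log2 fold change of -0.04 (standard error 0.41).

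On the ChREBP side, Mlx was lower while the estimate for Mlxipl was near 0. Mlx, the obligate partner of ChREBP on DNA, was 9.07, 8.82, 8.72 and 8.94 in the HFD+WBM mice, against 9.34, 9.36, 9.42 and 8.97 in the HFD mice. Of the HFD mice, 3 were above every HFD+WBM mouse, and HFD replicate 4 lay among the HFD+WBM mice. The means were 8.89 ± 0.15 with HFD+WBM and 9.28 ± 0.20 with HFD (SD, n = 4 each), so that Mlx was 1.31-fold lower (log2 fold change -0.38, standard error 0.16, 95% interval -0.74 to -0.03). Limma gave p = 0.037 before adjustment and an adjusted p of 0.406, and the exact permutation p was 0.0571. This call was lost when any of HFD+WBM replicates 2, 3 and 4 or HFD replicates 1, 2 and 3 was left out (log2 fold change -0.49 to -0.33 over all 8 such fits, p up to 0.0906).

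Mlxipl, which encodes ChREBP, was 10.58, 10.49, 10.21 and 10.04 in the HFD+WBM mice, against 10.53, 10.65, 10.25 and 9.95 in the HFD mice. The 2 sets of values interleaved almost evenly. Its log2 fold change was -0.02 (standard error 0.20, 95% interval -0.47 to 0.43), and the sign changed with the mouse left out (-0.15 to 0.08) and under quantile normalization (0.04). Its 2 RefSeq starts are 17001 bases apart and are not told apart by its probe set, so that the ChREBP isoforms known to arise from separate promoters were not measured singly.

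The USF genes had estimates above 0, and neither passed the threshold in the limma fit with all mice. Usf1 was 7.59, 7.73, 7.39 and 7.41 in the HFD+WBM mice, against 7.17, 7.23, 7.32 and 7.14 in the HFD mice. Every HFD+WBM mouse lay above every HFD mouse. The log2 fold change was 0.32 (standard error 0.14, 95% interval -0.00 to 0.64), with a limma p of 0.0507 before adjustment and an exact permutation p of 0.0286, the smallest that 4 against 4 can give. It passed p under 0.05 before adjustment in 6 of the 18 alternatives, among them the methods' t-test, and not with a signal-dependent prior variance. Usf2 was 9.91, 10.01, 10.06 and 9.88 in the HFD+WBM mice, against 9.69, 9.89, 9.80 and 9.59 in the HFD mice. Only HFD replicate 2 reached into the HFD+WBM range, and the log2 fold change was 0.22 (standard error 0.14, 95% interval -0.09 to 0.53, limma p = 0.138, exact permutation p = 0.0571). Usf1, Usf2 and Mbtps1 had the smallest within-diet SDs of the 10 genes (0.128, 0.108 and 0.139).

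**Figure D2:**
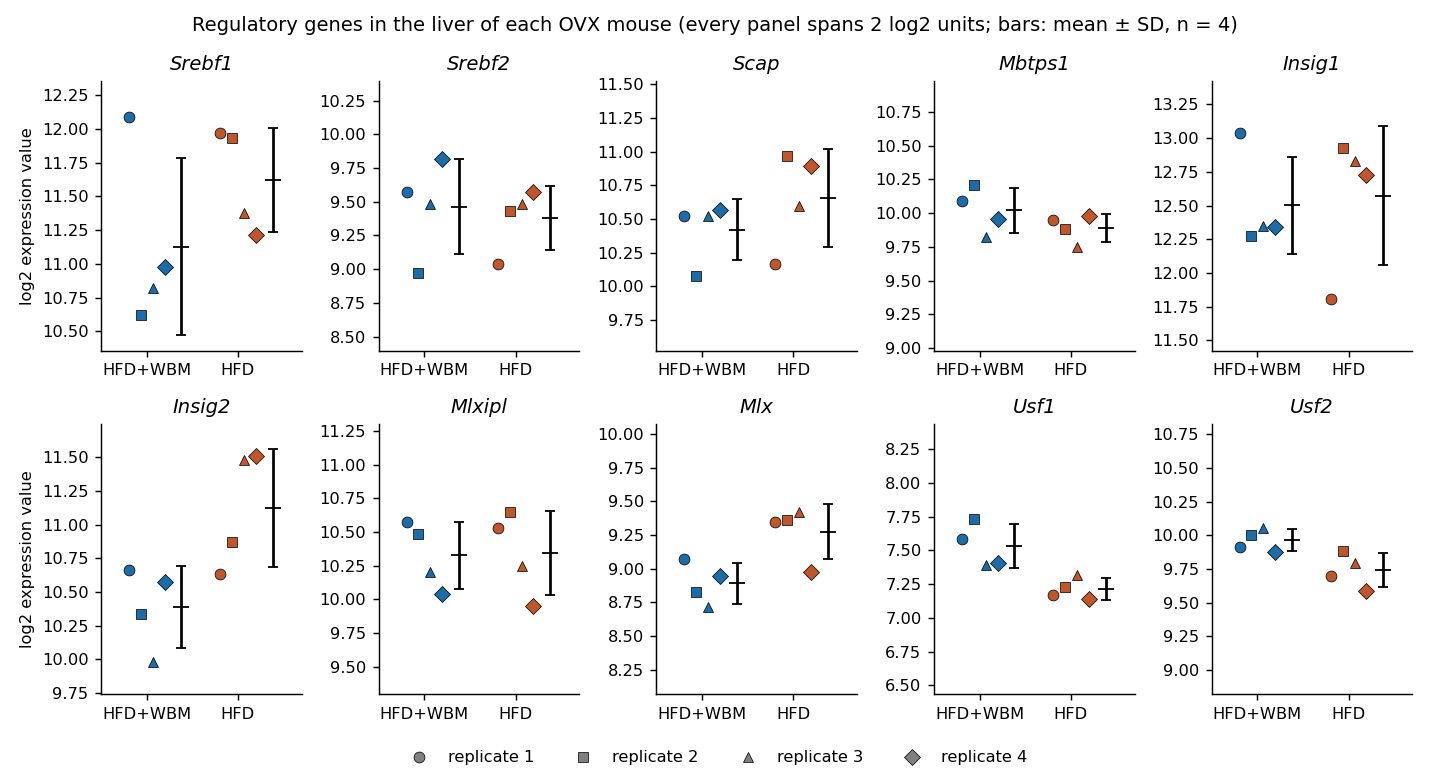
Log2 expression values of the 10 genes in each liver, HFD+WBM (blue) left of HFD (orange), each group's mean and SD (n = 4) drawn next to its points, and replicate numbers told apart by marker shape. Every panel spans 2 log2 units. Usf1 is higher in all 4 HFD+WBM mice, Insig2 overlaps only at replicate 1 of each diet, and Srebf1 and Insig1 have their highest value in HFD+WBM replicate 1 (12.09 and 13.04).

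**Figure D3:**
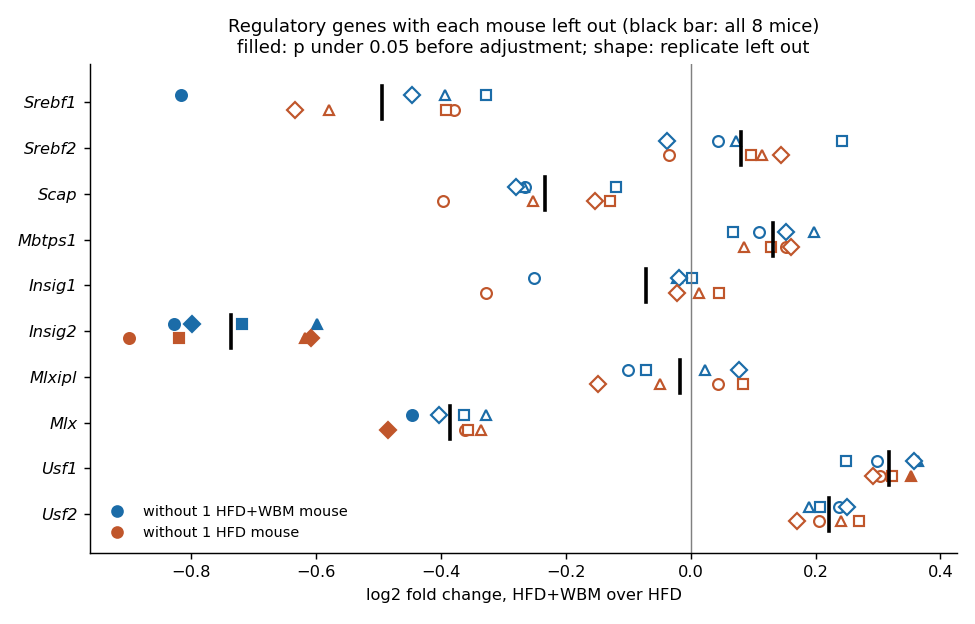
Log2 fold change of each gene, HFD+WBM over HFD, with each of the 8 mice left out in turn (blue above: an HFD+WBM mouse, orange below: an HFD mouse) and with all mice (black bar). Filled markers have p under 0.05 before adjustment: all 8 for Insig2, 2 of 8 for Mlx, 2 of 8 for Usf1 and 1 of 8 for Srebf1, the fit without HFD+WBM replicate 1.

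Of 20 other genes measured of SREBP processing and of the network that Mlx shares with Max, 2 were lower, 3 were higher and 15 did not pass p under 0.05 before adjustment, where 11.7% of all genes passed, 6.9% lower and 4.85% higher (list median -0.062 on the log2 scale, against 0.007 over all genes), and 3 of the 20 passed when any 1 mouse other than HFD replicate 2 was left out. Paqr3, a Golgi protein known to tether Scap and SREBP there, was 8.10, 7.57, 7.73 and 7.53 in the HFD+WBM mice, against 8.58, 8.36, 8.46 and 8.29 in the HFD mice. Every HFD+WBM mouse was below every HFD mouse, and Paqr3 was 1.61-fold lower (log2 fold change -0.69, standard error 0.17, adjusted p = 0.364, exact permutation p = 0.0286), past p under 0.05 before adjustment in all 18 alternatives. Ufd1, a cofactor of the ATPase that pulls proteins out of the endoplasmic reticulum for degradation, was 1.30-fold lower (log2 fold change -0.38, standard error 0.15) and did not pass in 5 of 8 fits without 1 mouse. Mxd1 (log2 fold change 0.42, standard error 0.14) and Mxi1 (0.39, standard error 0.14), repressors that pair with Max and, for Mxd1, also with Mlx, were higher in every HFD+WBM mouse. Mxd1 passed without any 1 mouse and Mxi1 in 6 of 8 such fits. Spring1, needed for the site-1 protease to mature, completed the 5 (log2 fold change 0.39, standard error 0.17) and passed in 1 of the 8 fits without 1 mouse. Mbtps2 is not analysed here.

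Insulin is a main inducer of Srebf1 transcription in liver, together with LXR, and cofactors such as CRTC2 act on SREBP-1 processing in mouse liver. Of 30 measured genes of these inputs and of SREBP coactivators, 4 were higher at p under 0.05 before adjustment, none was lower and 26 did not pass, a share near the 11.7% of all genes that passed in either direction, with 4.85% higher (list median 0.05 on the log2 scale). The count was 2 without HFD+WBM replicate 2 or 4 or HFD replicate 2 or 4, and the methods' t-test gave 6 higher and 1 lower. Irs2, an insulin receptor substrate prominent in liver, was 9.94, 9.58, 9.11 and 9.90 in the HFD+WBM mice, against 7.46, 8.23, 8.57 and 8.89 in the HFD mice. Every HFD+WBM mouse was above every HFD mouse, a 2.54-fold rise (log2 fold change 1.35, standard error 0.31, adjusted p = 0.363, exact permutation p = 0.0286). The receptor gene Insr was higher in every HFD+WBM mouse too (log2 fold change 0.38, standard error 0.14), and it passed without any 1 mouse. Crtc2 (0.38, standard error 0.15) and Irs1 (0.49, standard error 0.21) passed with all mice and in 2 of 8 fits without 1 mouse. Nr1h3, which encodes LXR alpha, was 9.93, 9.96, 9.89 and 10.11 in the HFD+WBM mice, against 10.23, 10.13, 10.26 and 10.06 in the HFD mice. Of the HFD+WBM mice only replicate 4 reached into the HFD range, and the log2 fold change was -0.20 (standard error 0.13, adjusted p = 0.563).

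By median log2 fold change, the lists of targets lay further below 0 than the 10 regulatory genes (-0.045), a difference that was not tested. The 10 include the Insig genes, whose proteins hold Scap back, so their median is not that of the factors alone. Gene by gene the order did not always hold: Mlx (-0.38) lay below the median of the ChREBP targets, while Srebf1 (-0.50) lay above that of the SREBP-1 targets. Over all genes 11.7% passed p under 0.05 before adjustment, 6.9% lower and 4.85% higher, and the median log2 fold change was 0.007. Of 17 measured SREBP-1 targets of fatty acid and triglyceride synthesis, 6 were lower and none higher at p under 0.05 before adjustment, and all 17 estimates were below 0 (median -0.676). The 6 were Elovl6 (log2 fold change -1.74), Thrsp (-1.24), Fasn (-1.35), Acaca (-0.97), Pnpla3 (-2.39) and Acly (-1.22), which serve fatty acid synthesis and lipid droplets. The study had already reported Elovl6, Fas (Fasn here), Acc and ATP citrate lyase (Acly here) as lower from these arrays. The list was chosen with earlier results of these data known, so its count is not independent of them. Elovl6, Thrsp, Fasn and Acaca passed without any 1 mouse, Pnpla3 in 5 of those 8 fits and Acly in 2. Pnpla3 was dim in several mice, at 4.17 to 7.94 with HFD+WBM and 6.10 to 9.13 with HFD. Its mean over all arrays was above that of only 40.6% of genes, so the size of its change is less certain. Leaving out HFD replicate 1 brought the count to 15 of 17, and leaving out HFD+WBM replicate 1 to 9. It was 4 without HFD+WBM replicate 3 or 4 or HFD replicate 2 and 4 by the methods' t-test, with 5 in the other 3 fits without 1 mouse. Of 18 measured SREBP-2 targets of the cholesterol pathway none passed p under 0.05 before adjustment by limma or by the methods' t-test (16 estimates below 0, median -0.196), and 7 were lower without HFD replicate 1. Mvd (log2 fold change -0.74, standard error 0.51) and Fdps (-0.54, standard error 0.55), enzymes of the mevalonate pathway, had the smallest p of that list. Of 15 measured ChREBP targets, 5 were lower, 1 was higher and 9 did not pass (median -0.265). Tkfc, which handles glyceraldehyde from fructose, was 1.60-fold lower and Gpd1, the glycerol-3-phosphate dehydrogenase, 1.51-fold lower, both without overlap between the diets. Over all genes, 5.02% were lower and 3.21% higher without overlap. Pklr, the liver pyruvate kinase, was 1.90-fold lower with overlap, and Thrsp and Pnpla3 stand in both this list and that of SREBP-1. Txnip, a glucose-induced ChREBP target, was the one that was higher, at 11.89, 11.85, 11.35 and 11.97 in the HFD+WBM mice, against 11.18, 10.55, 11.34 and 11.32 in the HFD mice (1.59-fold, log2 fold change 0.67, standard error 0.22). The groups did not overlap for Txnip, though replicate 3 of each diet had nearly the same value.

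**Figure D4:**
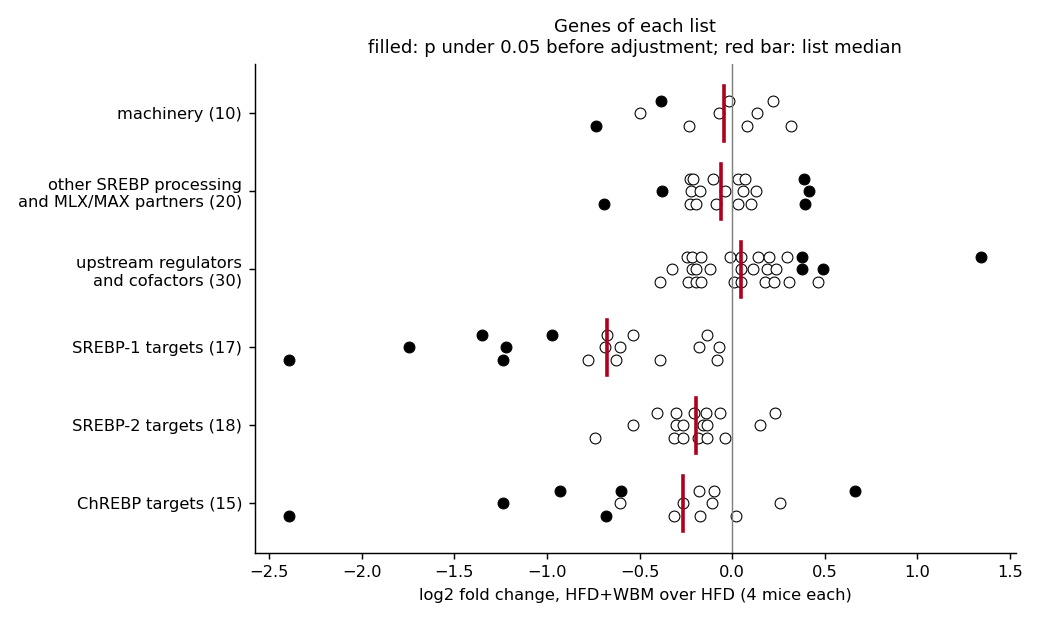
Log2 fold change of each gene of the 6 lists, HFD+WBM over HFD (4 mice each), filled for p under 0.05 before adjustment, with the list median as a red bar. The SREBP-1 targets lie wholly below 0 (median -0.676), while the 10 regulatory genes lie on both sides (median -0.045) and Irs2 stands alone at 1.35 among the upstream genes.

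Whether the mRNA of a regulatory gene went with that of SREBP or ChREBP targets from liver to liver was asked for 5 pairs, over 8 mice. Exact permutation tests, two-sided, were used, with Benjamini-Hochberg adjustment over the 5 relations. The lists set against Insig1 and Insig2 are targets of the SREBPs, not of the Insig proteins, and Insig1 is itself an SREBP target. Of the 5 pairs, Insig1 with the mean of the 18 SREBP-2 targets gave the highest Pearson's r, 0.88 (exact permutation p = 0.00268, adjusted p = 0.0134). Spearman's rho was 0.762 (p = 0.0368, adjusted p = 0.115). Insig1 was not set against the SREBP-1 targets, so this relation is not shown to be particular to the SREBP-2 list. Acly, an SREBP-1 target, was among the genes most like Insig1 within diets (r = 0.982). The relation of Insig1 to the SREBP-2 targets stayed at r = 0.883 for deviations from the diet means. Without the 2 mice farthest from the median (replicate 1 of each diet) it was 0.812. Srebf2 gave r = 0.789 (exact permutation p = 0.0261, adjusted p = 0.0458) and rho = 0.476 (p = 0.243, adjusted p = 0.334) with the same targets. For deviations from the diet means r was 0.845 (exact permutation p = 0.0191), but the relation rested on HFD+WBM replicate 2 and HFD replicate 1, without which it was -0.111. The mean of the SREBP-2 targets was 11.02, 10.02, 10.50 and 10.83 in the HFD+WBM mice, against 9.70, 11.14, 11.05 and 11.33 in the HFD mice, so that HFD replicate 1 was the lowest of all, as it was for Insig1.

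Srebf1 was tied less closely to its own targets. Over all 8 mice the mean of the 17 SREBP-1 targets gave r = 0.516 with Srebf1 (exact permutation p = 0.167, adjusted p = 0.209) and rho = 0.452 (p = 0.267, adjusted p = 0.334). For deviations from the diet means r was 0.33 (exact permutation p = 0.432), and without replicate 1 of each diet it was 0.858 (p = 0.0153), so that the relation turned on those 2 mice. The mean of these targets was 12.01, 10.94, 11.04 and 10.85 in the HFD+WBM mice, against 11.03, 12.48, 12.28 and 12.27 in the HFD mice. In HFD+WBM replicate 1 both Srebf1 and its targets were high, whereas HFD replicate 1 had the highest Srebf1 value of its diet and the lowest target mean. Insig2 gave r = 0.759 with the SREBP-1 targets (exact permutation p = 0.0275, adjusted p = 0.0458) and rho = 0.738 (p = 0.0458, adjusted p = 0.115), but r was 0.577 (p = 0.222) for deviations from the diet means and 0.634 (p = 0.174) without HFD replicates 3 and 4. Mlxipl gave r = 0.144 with the 15 ChREBP targets (exact permutation p = 0.719, adjusted p = 0.719) and rho = 0.167 (p = 0.703, adjusted p = 0.703).

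**Figure D5:**
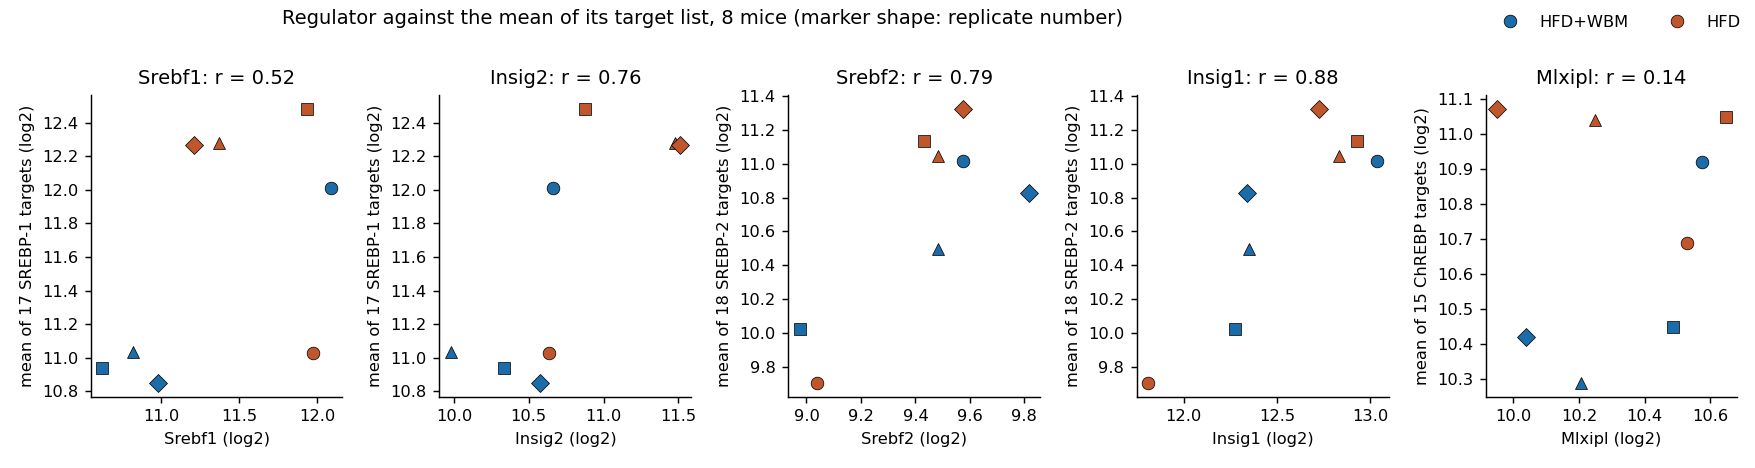
Log2 value of a regulatory gene against the mean log2 value of a list of SREBP or ChREBP targets in each of 8 livers, HFD+WBM in blue and HFD in orange, replicate numbers told apart by marker shape, and Pearson's r above each panel. The lists set against Insig1 and Insig2 are targets of the SREBPs, not of the Insig proteins. Insig1 rises with the SREBP-2 targets in both diets (r = 0.88), and HFD replicate 1 (orange circle) sits low for the SREBP-1 targets at a high Srebf1 value of 11.97.

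The genes whose values moved most like each regulator were sought among 9959 brighter genes, by the correlation of deviations from the diet means over 8 mice, given as a description. For Insig1 they were Pgd (r = 0.99), an NADPH-producing enzyme, Pdcd4 (0.982) and Acly (0.982), the enzyme that makes cytosolic acetyl-CoA. Pgd was 10.06, 8.95, 8.91 and 9.04 in the HFD+WBM mice, against 9.11, 10.65, 10.39 and 10.48 in the HFD mice, with replicate 1 of each diet apart from its group and toward the other diet. For Insig2 they were Sptlc2 (0.969), Calu (0.969) and Slc44a3 (0.968), for Srebf1 Shroom1 (0.964), Vwce (0.962) and Med8 (0.953), for Srebf2 Commd6 (0.985), Gm5617 (0.984) and Nat9 (0.982), and for Mlxipl Kcnk18 (0.963), Tub (0.951) and Acsl6 (0.947). The points share the 8 livers, and no p is given. Each gene was picked for the highest r of 9959, so a high r is in part a result of the search. Among the 10 regulatory genes themselves, the closest pairs by the same measure were Srebf2 with Scap (0.828) and Scap with Insig1 (0.737), and the most opposed was Srebf2 with Mlxipl (-0.568).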

How the data were processed

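The measurements are of liver RNA from 8 OVX mice, 4 on HFD+WBM and 4 on HFD, 1 array each. The authors background-corrected and normalized the probe intensities and summarized them by IterPLIER in Affymetrix Power Tools 1.8.6, the version the submitters' notes also name. What they deposited is a log2 value for each of 28944 probe sets. Neither an offset added before the log nor a genome build is given in those sources.

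Probe sets naming 1 gene (21789) were reduced to the brightest per gene. limma 3.58.1 (R 4.3.3), with diet as its single term, tested the 19938 genes, and Benjamini-Hochberg adjustment covered all of them. The test was checked on simulated data. Labels name separate liver specimens, and the number of arrays limits precision. The regulatory genes and the lists were chosen with earlier results of these data known. Genes named were the 10, up to 4 of smallest p per list and the 3 most alike. Spring1, Pnpla3, Acly, Gpd1, Nr1h3, Mir33 and the values of Pgd were added after their values were seen. Marker lists of other cells gave, by limma at p under 0.05 before adjustment, 3 of 8 stellate and 3 of 8 endothelial genes lower, and none of 5 cholangiocyte, 7 lymphocyte or 4 adipocyte genes (none of those 3 lists by the methods' t-test either). By limma 6.9% of all genes were lower and 4.85% higher at that threshold.

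Alternatives were array centring, quantile normalization, offsets of 16 or 64, the 50% brightest genes, the mean of a gene's probe sets, a signal-dependent prior variance, array weights, the methods' t-test (named for the diets' other measurements, not for the arrays), a block for the replicate number, each mouse left out in turn and a 1.5-fold threshold.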

Additional observations from a re-analysis of the deposited data

Results flagged for a closer look

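Of 30 groups of 4 livers examined for 1 mouse far from the rest of its diet (the 10 genes and 5 list means in each diet), 6 had a gap larger, as a share of the group's range, than Dixon's 95% critical value, where chance flags about 1 group in 20. Among the HFD+WBM mice these were Scap (0.905), with replicate 2 at 10.08 below the others, Insig1 (0.903), with replicate 1 at 13.04 above the others, and the mean of the SREBP-1 targets (0.839), with replicate 1 at 12.01. Among the HFD mice they were the mean of the SREBP-1 targets (0.852) and that of the ChREBP targets (0.918), each with replicate 1 lowest, at 11.03 and 10.69, and the mean of the upstream genes (0.897), with replicate 3 highest at 9.33. The lists of SREBP-1 and ChREBP targets share Thrsp and Pnpla3, and genes of a list move together, so these cases are not independent.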

How the results depend on the processing

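Insig2, Scap and Mbtps1 kept their direction and their side of p under 0.05 (unadjusted) in all 18 alternatives. The number of genes at the study's thresholds was 152, and it was 65 and 32 with offsets of 16 and 64, 43 among the 50% brightest genes, 98 by the methods' t-test, 890 at 1.5-fold, and 154 to 235 with 1 mouse left out (235 without HFD replicate 2). No gene had an adjusted p under 0.05, against 2 and 80 with those offsets, 19 among the brightest, 139 with a signal-dependent prior variance, and 0 to 1 with 1 mouse left out. Of the 10 regulatory genes 2 passed p under 0.05, 4 did by the methods' t-test, and 1 to 3 with 1 mouse left out. The cause was not tested in any of these cases.

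Log2 fold changes that crossed p under 0.05 were those of Srebf1 (-0.482 with an offset of 64, -0.495 with the signal-dependent prior variance, -0.816 to -0.327 with 1 mouse left out), Mlx (-0.301 with array weights, -0.485 to -0.328), Usf1 (0.326 with quantile normalization, 0.317 among the brightest and by the t-test, 0.351 with array weights, 0.249 to 0.364) and Usf2 (0.221 by the t-test). Signs turned, with none past the threshold, for Srebf2 (-0.038 to 0.242 with 1 mouse left out, -0.035 without HFD replicate 1), Insig1 (-0.327 to 0.045, among them 0.002 and 0.013) and Mlxipl (0.039 with quantile normalization, 0.022 with array weights, -0.149 to 0.084 with 1 mouse left out). Over 6 mice, r of Srebf1 with its targets was 0.858, of Insig2 0.634 and of Srebf2 -0.111, and for within-diet deviations over 8 mice these were 0.33, 0.577 and 0.845.

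Over all genes, deviations of same-numbered mice correlated at -0.036, -0.049, -0.117 and -0.017. No pairs of different number were set beside them, so whether the replicate numbers pair the mice is not settled. With the replicate block 1 of the 10 genes passed, Mlx keeping its -0.385 but not the call, and 3 of the processing partners and 2 of the upstream genes passed. The order of the 10 genes' levels was not run, since levels of different probe sets cannot be compared.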
